A study of Mus musculus with 23 samples.

Results

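The antimicrobial products of Paneth cells were followed in small intestinal scrapings of 23 mice on a high-fat diet. The set held every array spot whose gene name in the scanner files begins with Defa or Defcr, together with Lyz1, Mmp7, Ang4, Itln1 and Pla2g2a. These were 32 probes of 55681 on the array, 1 spot each, under 23 of 34797 gene names. No spot was named Defcr (0 probes), and the 18 Defa names had 25 probes. Of these, 14 probes under 9 names were alpha-defensins, 8 probes under 6 names were defensin-related sequences (Defa-rs) and 3 were defensin pseudogenes (Defa-ps). The other 7 probes were 3 of Itln1 and 1 each of Lyz1, Mmp7, Ang4 and Pla2g2a.

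The HF-Q group was 11 adult male C57BL/6J mice that ate a high-fat diet containing 0.33% by weight of quercetin, a plant flavonol, for 12 weeks. The HF group was 12 such mice on the same high-fat diet with no quercetin. All 23 mice first had 3 weeks of normal-fat food and were fasted for 2 to 4 hours before death, so the high-fat diet is common to both groups. Each mouse gave 1 array, with its own RNA in Cy5 and an equimolar pool of all mice in Cy3. A value is therefore a log2 ratio to that pool, and dyes were not swapped. One label field names liver as the tissue of extraction, whereas the others name small intestine. The 12 listed enterocyte markers were measured on all 23 arrays. The position of the scrapings along the intestine is not stated in the labels. The arrays lay on 3 slides, scanned 1 slide at a time, and each slide held mice of both diets. Probes well above background in Cy5 made up 48.6 to 56.6% of an array.

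Paneth cells sit at the base of the small intestinal crypts, between the stem cells, and release granules that hold antimicrobial proteins into the crypt lumen. Mouse alpha-defensins, also called cryptdins, are short cysteine-rich peptides made as inactive precursors. Matrilysin, the metalloproteinase encoded by Mmp7, cuts them into their active form in the mouse. Lyz1 encodes the Paneth cell form of lysozyme, which breaks bacterial cell walls. Ang4 encodes a microbicidal ribonuclease of the angiogenin family, Itln1 a lectin that binds microbial sugars, and Pla2g2a a secreted phospholipase that attacks bacterial membranes. The Pla2g2a gene of C57BL/6 mice carries a frameshift, so its transcript does not code for the full enzyme. Defensin genes form a dense cluster of near-identical copies, whose number differs among mouse strains.

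The likeness of these copies limits what a defensin probe measures, and a few probe sequences show it. The probes are 60 bases long, are printed 5′ to 3′ as the scanner files give them, and positions are on build mm9. The first pair is a Defa23 probe that was detected on all 23 arrays (chr8:22194930-22195548, a span longer than the probe) and the Defa4 probe, unmapped in the files, that was detected on 3. They share an aligned stretch of 51 bases with 9 mismatches (82.4% identity), and capitals mark the bases that differ.
Defa23: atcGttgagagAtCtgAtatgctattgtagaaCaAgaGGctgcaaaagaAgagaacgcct
Defa4: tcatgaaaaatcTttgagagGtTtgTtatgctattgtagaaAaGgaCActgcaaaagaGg
A Defa1 probe, unmapped in the files, and a Defa3 probe (chr8:22427899-22427958) are closer still. Over 56 aligned bases they differ at 4, again in capitals, and both were detected on all 23 arrays.
Defa1: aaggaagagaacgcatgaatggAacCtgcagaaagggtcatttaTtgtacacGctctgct
Defa3: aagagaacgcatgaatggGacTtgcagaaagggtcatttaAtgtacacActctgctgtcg
The probes of 3 defensin-related sequences, all unmapped in the files, lie in register and have the same base at 45 of 60 positions. Capitals mark the 15 positions at which the set differs.
Defa-rs10: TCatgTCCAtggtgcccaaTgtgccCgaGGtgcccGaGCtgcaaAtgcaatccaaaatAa
Defa-rs12: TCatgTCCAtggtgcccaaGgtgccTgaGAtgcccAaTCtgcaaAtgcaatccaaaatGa
Defa-rs7: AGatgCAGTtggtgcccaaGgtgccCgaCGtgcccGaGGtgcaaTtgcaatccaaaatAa
Defa-rs10 and Defa-rs12 differ at 6 positions, and Defa-rs12 and Defa-rs7 at 14.
Across the 25 Defa probes, 11 share an unbroken run of 20 or more bases with a Defa probe of another gene name, and the longest such run is 33 bases, between Defa25 and Defa-ps1. The scanner files list more than 1 RefSeq accession for 12 of the 25. A value under a defensin name may therefore include signal from other copies, and cross-hybridisation was not tested. The 7 probes of the other products share at most 10 bases in a row with any Defa probe. Those of Mmp7 (chr9:7697641-7697700), Ang4 (chr14:52384066-52384125) and Pla2g2a (chr4:138390748-138390807) are shown because they serve below as readings free of such long shared runs.
Mmp7: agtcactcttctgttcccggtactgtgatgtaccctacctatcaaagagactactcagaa
Ang4: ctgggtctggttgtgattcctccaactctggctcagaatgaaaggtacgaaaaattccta
Pla2g2a: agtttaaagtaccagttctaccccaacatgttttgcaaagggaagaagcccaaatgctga

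Of the 32 probes, 27 under 18 gene names were well above background on all 23 arrays. All 7 probes of the other products were among them, with 12 of 14 alpha-defensin probes, 7 of 8 defensin-related probes and 1 of 3 pseudogene probes. The remaining 5 were at or near background. Defa10, Defa-rs4 and Defa-ps13 were well above it on 0 arrays. Defa-ps12 reached it on 1 HF array, and Defa4, the gene of cryptdin-4, on 1 HF-Q array and 2 HF arrays. The Defa4 spot read 58, 76 and 114 intensity units in HF-Q mice (lowest, median and highest Cy5 signal) and 52, 75 and 147 in HF mice. The Defa10 spot read 45, 50 and 61 in HF-Q mice and 44, 47 and 58 in HF mice. These 5 probes have only an upper bound here and enter no comparison. A position on mm9 is given for 22 of the 32 probes. Of the 25 Defa probes 16 are mapped, all to chromosome 8, and among the 10 probes with no position 8 were detected on every array.

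The detected probes were well above background in Cy5 in every mouse of both diets, but not all of them were bright. The dimmest, a Defa-rs2 probe, read 123, 225 and 304 units over all mice (lowest, median, highest). The Defa23 probe used below (chr8:22195607-22195666) read 298247, 564240 and 633560 units in HF-Q mice (lowest, median, highest) and 410276, 591023 and 635915 in HF mice. It was the only member with saturated Cy5 spots, on 2 arrays, and no member was saturated in Cy3 (0 spots). Lyz1 (chr10:116724862-116724921) read 95045, 248490 and 291609 in HF-Q mice and 143738, 234889 and 317960 in HF mice. Ang4 read 7541, 27381 and 36213 in HF-Q mice and 11961, 32356 and 44528 in HF mice. Mmp7 read 4286, 13940 and 17698 in HF-Q mice and 4658, 10855 and 20770 in HF mice. The brightest Itln1 probe (chr1:173448282-173448341) read 108413, 285635 and 364811 in HF-Q mice and 152035, 307422 and 359908 in HF mice. Pla2g2a read 494, 1310 and 2180 in HF-Q mice and 538, 1427 and 2518 in HF mice. The diets overlapped in each of these genes. Signals of different probes depend on the probe and were not set against each other.

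These genes were widely spread between mice. The SD of the log2 ratio over the mice had a median of 0.796 over the 27 detected probes, against 0.163 over the 29249 probes kept for testing. In the Cy5 channel alone, without the Cy3 pool, the contrast was smaller, with a median SD of 0.463 against 0.172. Of the 27, 26 had an SD above 0.5, as did 2.39% of all probes kept, and 23 lay above the 99th percentile of all probes (0.676). As a ratio to the pool, the highest mouse exceeded the lowest by a median of 6.57-fold (1.89 to 9.62-fold over the probes). In Cy5 alone it did so by a median of 3.22-fold (1.83 to 6.44-fold). The pool's own signal varied at the brighter probes, as described with the dye channels below. The ratio and Cy5 alone were also normalized differently, by loess and by quantiles, and the source of the gap was not tested. The spread lay within the diets, with a median SD over the probes of 0.806 among HF-Q mice and 0.796 among HF mice. The detection filter used signal and not spread.

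**Figure D1:**
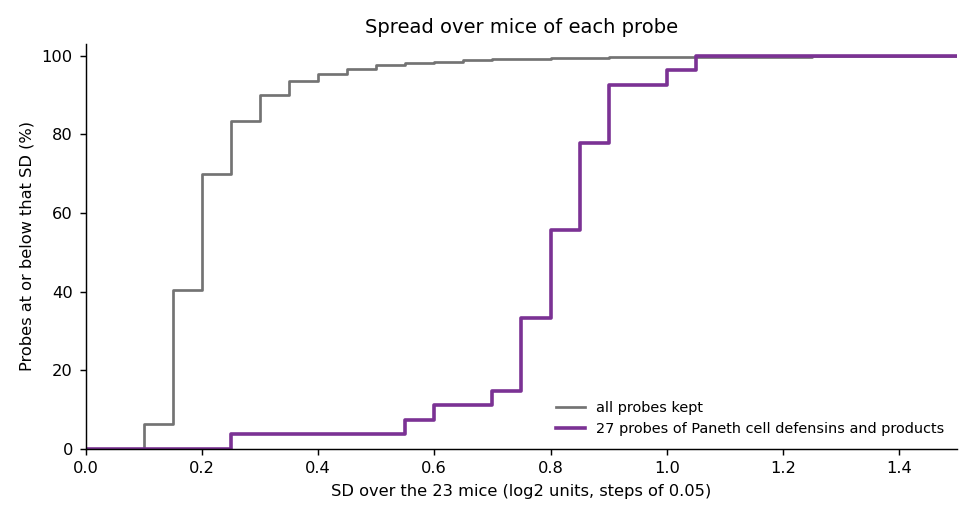
The horizontal axis is the SD of a probe's log2 ratio over the 23 mice, and the vertical axis the percent of probes at or below it, for the 27 detected probes of Paneth cell defensins and products and for all 29249 probes kept. The curve of the Paneth set lies to the right, with a median SD of 0.796 against 0.163 (0.463 against 0.172 in Cy5 alone, which is not drawn).

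By the log2 ratio, the most variable probes were alpha-defensins. Defa21 (chr8:22166019-22166078) had an SD of 1.02, with log2 ratios of -2.03, 0.36 and 1.01 in HF-Q mice (lowest, median, highest) and -1.81, 0.28 and 1.23 in HF mice. Defa5 (chr8:22437935-22437994), the gene of cryptdin-5, had an SD of 0.953, with -2.01, 0.29 and 0.68 in HF-Q mice and -1.67, 0.61 and 1.04 in HF mice. Both genes had mice of each diet at both ends of their range. The third was the pair of Defa3 (chr8:22427233-22427292) and Defa-ps1 (chr8:22805553-22805612), each with an SD of 0.873. The least variable was the dimmer of 2 Defa-rs2 probes (SD 0.24), with -0.30, 0.03 and 0.33 in HF-Q mice and -0.51, -0.06 and 0.40 in HF mice. Its Cy5 signal was only 123 to 304 units, and the brighter Defa-rs2 probe had an SD of 0.796. Next above the dimmer probe came Defa-rs12 (SD 0.542) and Pla2g2a (SD 0.587). This order holds for the ratio and not for Cy5 alone. In Cy5 alone Defa-rs7 (SD 0.796), Defa-rs10 (0.78) and Defa25 (0.767) had the widest spread, with 0.598 for Defa21 and 0.644 for Defa5. The narrowest there were 2 Defa1 probes (0.218 and 0.233) and Defa23 (0.236), while Defa-rs12 and Pla2g2a had 0.653 and 0.648.

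The genes moved together from mouse to mouse. The median log2 ratio over the detected probes was lowest in HF-Q mice 1 and 2, at -1.16 and -1.66, and in HF mice 1, 4 and 3, at -1.10, -1.06 and -0.86. HF-Q mouse 3 followed at -0.59. These 6 mice, 3 of each diet, were the ones below -0.5, and they lay on all 3 slides. All 6 carry replicate numbers from 1 to 4, and the labels do not say what the numbers stand for. At the other end stood HF mice 11, 12 and 7 at 0.91, 0.89 and 0.77, followed by HF-Q mouse 7 at 0.75. HF-Q mice had a median of 0.29 (range -1.66 to 0.75) and HF mice a median of 0.36 (range -1.10 to 0.91), and 7 of 11 HF-Q mice lay below the HF median.

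**Figure D2:**
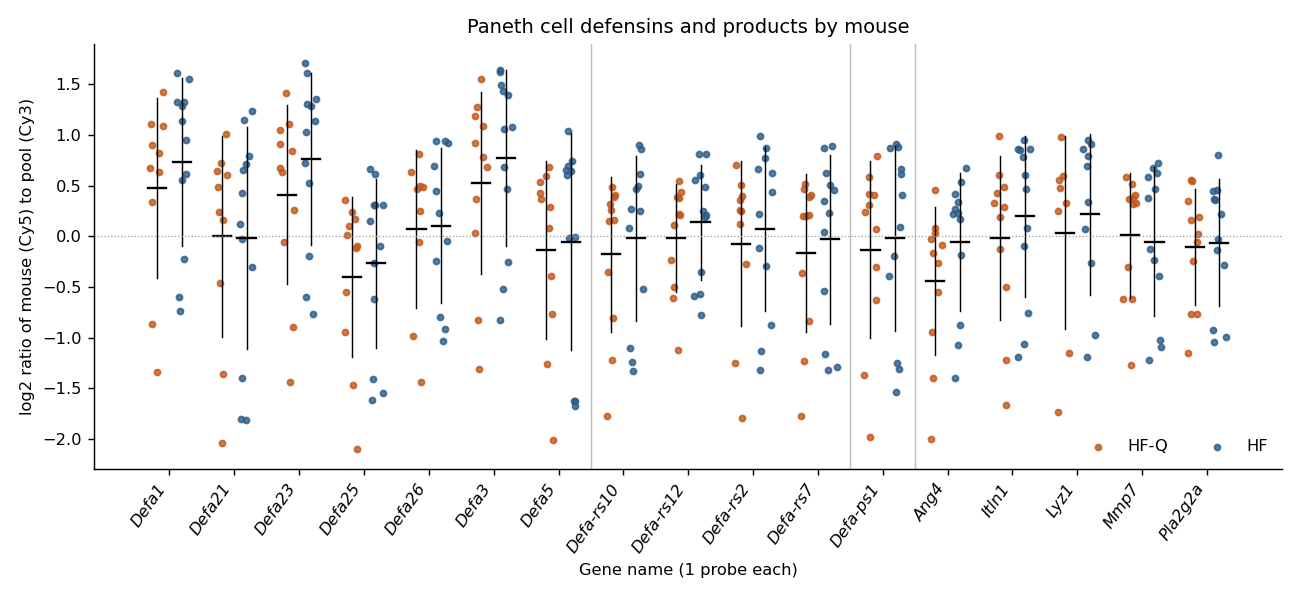
Log2 ratio of each mouse to the pool for the brightest probe of 17 of the 18 detected gene names, HF-Q left of HF, with 1 point per mouse, the mean as a horizontal bar and ± 1 SD as a vertical line. From left to right the blocks are alpha-defensins, defensin-related sequences, a pseudogene and the other products, and in every gene the diets overlap, with mice of both far below the rest.

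Setting HF-Q against HF asks whether quercetin in a high-fat diet shifts the transcripts of these products. It found no change that passed the test. With limma and Benjamini-Hochberg adjustment over all 29249 probes, 0 of 27 probes were called at adjusted p under 0.05, against 0% of all probes. At an unadjusted p under 0.05 there were 0 of 27, against 4.36% of all probes. Adjusted p ran from 0.954 to 0.998. The fitted differences leaned low, with 24 of 27 probes below 0 against 51.6% of all probes, and a median log2 fold change of -0.16 (range -0.38 to 0.06) against -0.003 for all probes. Since the 27 probes rise and fall together over mice, they do not count as 27 separate observations of that lean. In bulk tissue, fewer Paneth cells and less RNA per cell cannot be told apart.

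**Figure D3:**
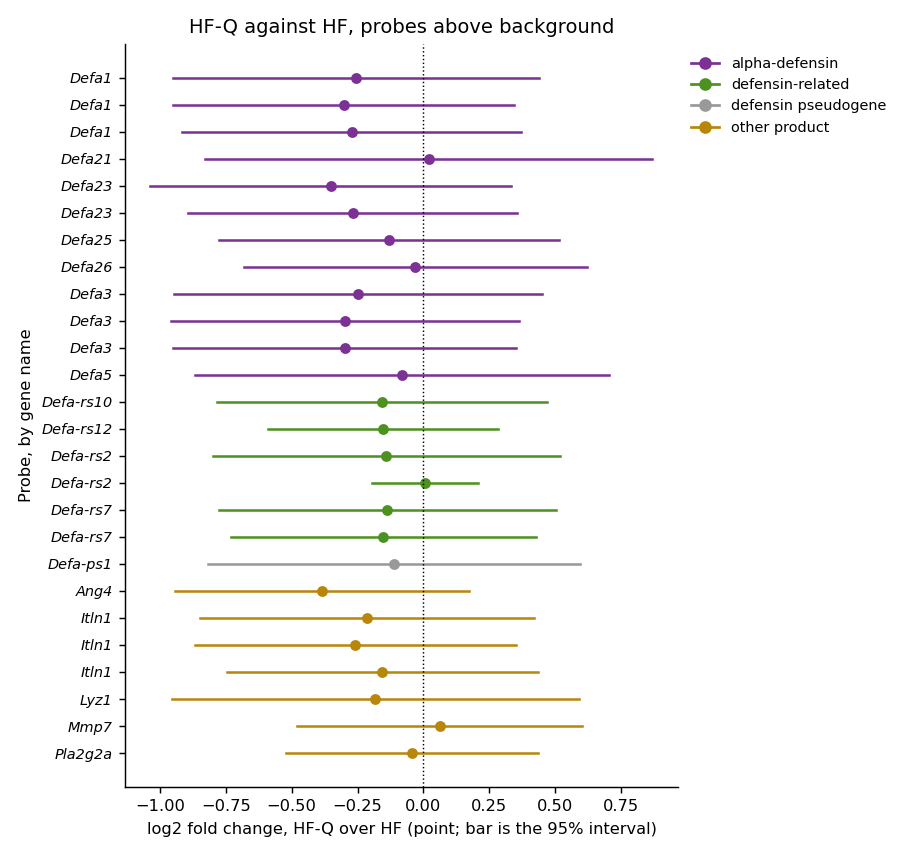
Log2 fold change of HF-Q over HF (horizontal axis) for 26 of the 27 detected probes, named by gene down the vertical axis, with the point as the estimate and the bar as the 95% interval from limma. All 26 intervals cross 0, and 23 of 26 points lie to its left.

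Among the alpha-defensins 11 of 12 detected probes were lower and 1 higher in HF-Q, with a median log2 fold change of -0.26, and 0 were called. Defa23 gave log2 ratios of -1.44, 0.67 and 1.41 in HF-Q mice (lowest, median, highest) and -0.77, 1.09 and 1.71 in HF mice. It averaged 0.41 ± 0.88 in HF-Q (SD, n = 11) and 0.76 ± 0.85 in HF (SD, n = 12), a log2 fold change of -0.35 ± 0.33 SE (95% interval -1.04 to 0.33; unadjusted p = 0.301, adjusted p = 0.954 in limma). Most HF-Q mice, 9 of 11, lay below the HF median of this probe, yet the ranges of the diets overlapped over most of their length. The other Defa23 probe, printed above, gave -0.27 ± 0.30. The brightest Defa1 probe (chr8:22332166-22332226) gave -1.33, 0.75 and 1.42 in HF-Q mice and -0.74, 1.04 and 1.61 in HF mice. The 3 Defa1 probes had log2 fold changes of -0.26, -0.30 and -0.27, with SE of 0.31 to 0.34. Only the brightest of them has a position on mm9. Signal under the name Defa1 may come from other copies, which was not tested. The brightest Defa3 probe gave -1.31, 0.78 and 1.55 in HF-Q mice and -0.83, 1.07 and 1.63 in HF mice. The 3 Defa3 probes had log2 fold changes of -0.25, -0.30 and -0.30. Some probes of Defa1, Defa3 and Defa23 share unbroken runs of up to 29 bases with each other, so their like values may not be separate measurements of 3 genes, which was not tested.

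Other alpha-defensins were nearer 0. Defa25 (chr8:22224205-22224264) gave -2.10, -0.09 and 0.36 in HF-Q mice and -1.62, 0.03 and 0.66 in HF mice, a log2 fold change of -0.13 ± 0.31. Defa5 had -0.08 ± 0.38, Defa26 (chr8:22728711-22728770) -0.03 ± 0.31 and Defa21 0.02 ± 0.41. Defa26 was read in 9 HF-Q and 11 HF mice, since outlier spots were set to missing. For all 4 genes the difference was smaller than its standard error. Of the defensin-related sequences, 6 of 7 detected probes were lower and 1 higher, with a median of -0.15 and 0 called. Defa-rs10 (-0.16 ± 0.30), Defa-rs12 (-0.15 ± 0.21), Defa-rs7 (named Defa31 in RefSeq; -0.14 ± 0.31 at its brighter probe) and Defa-rs2 (-0.14 ± 0.32 at its brighter probe) each differed by less than their standard error. The pseudogene Defa-ps1 had -0.11 ± 0.34.

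Of the other products Ang4, the ribonuclease, had the smallest unadjusted p of the set. It gave -1.995, -0.16 and 0.45 in HF-Q mice (lowest, median, highest) and -1.40, 0.23 and 0.67 in HF mice. It averaged -0.44 ± 0.73 in HF-Q (SD, n = 11) and -0.06 ± 0.68 in HF (SD, n = 12). The log2 fold change was -0.38 ± 0.27 SE (0.767-fold, 95% interval 0.521 to 1.13-fold), with an unadjusted p of 0.169 and an adjusted p of 0.954 in limma. Here 10 of 11 HF-Q mice lay below the HF median, while the highest HF-Q mouse stood above it. The difference did not pass the test.

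Mmp7, whose product activates the defensins, was among the few with a value above 0. It gave -1.27, 0.33 and 0.59 in HF-Q mice and -1.22, 0.12 and 0.72 in HF mice, a log2 fold change of 0.06 ± 0.26 (unadjusted p = 0.817). Lyz1 was read in 8 HF-Q and 10 HF mice, because its spot was marked as an outlier on 5 arrays, all of slide 1. Its log2 ratios were -1.73, 0.40 and 0.98 in HF-Q mice and -1.19, 0.52 and 0.95 in HF mice, a log2 fold change of -0.18 ± 0.37. With the marked spots kept, the Lyz1 log2 fold change was -0.19. The 3 Itln1 probes had log2 fold changes of -0.21, -0.26 and -0.16 (SE 0.29 to 0.31), the first from values of -1.66, 0.29 and 0.98 in HF-Q mice and -1.19, 0.54 and 0.95 in HF mice. Pla2g2a gave -1.15, 0.02 and 0.55 in HF-Q mice and -1.04, 0.10 and 0.80 in HF mice, a log2 fold change of -0.04 ± 0.23. None of these 4 genes differed between diets beyond its spread.

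The spread set how small a change these arrays could show. The median standard error of the 27 log2 fold changes was 0.313, against 0.0673 over all probes kept. Over the 27 intervals the lowest bound was 0.488-fold and the highest 1.83-fold, so changes between these bounds remain possible for at least 1 member. Within slides 1, 2 and 3, fitted apart, the median log2 fold change of the 27 probes was -0.20, -0.14 and -0.22, and 22 of 27 probes were lower in each. The medians of all probes were -0.002, 0.002 and -0.005. As the 27 probes move together over mice, the count in a slide is not one of 27 separate observations.

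Marker lists of other cell types were read beside the Paneth products. Each mouse was given a score per marker list, namely its log2 ratio averaged over the list's measured genes, and limma called 0 genes of any list between the diets. The smooth muscle list had 9 of 10 genes measured, all 9 lower in HF-Q and 0 called, with Lmod1 not above background. Its score ran -1.21, -0.39 and 0.74 in HF-Q mice (lowest, median, highest) and -0.60, -0.04 and 1.04 in HF mice. Smtn (-0.12 ± 0.09 SE) and Tagln (-0.22 ± 0.17), both actin-binding proteins of contractile smooth muscle, had the smallest unadjusted p of that list (0.198 and 0.203). The crypt base stem list had 9 of 10 genes measured, 6 lower and 3 higher, with Cdk6 not above background. Its score ran -0.77, 0.11 and 0.28 in HF-Q mice and -0.47, 0.12 and 0.42 in HF mice. Znrf3 (-0.15 ± 0.06 SE) and Rnf43 (-0.15 ± 0.07), which restrain Wnt signalling, had unadjusted p of 0.0236 and 0.0335 and adjusted p of 0.954 in limma. The Znrf3 probe was well above background on only 11 arrays, against 23 for Rnf43. The pancreatic acinar list had 15 of 16 genes measured, 14 lower and 1 higher, with the widest scores: -3.29, -1.46 and 2.13 in HF-Q mice and -3.21, -0.97 and 1.71 in HF mice. Sycn (-0.75 ± 0.58), a protein of the secretory granule, had the smallest unadjusted p of that list (0.204). Of all probes kept, 51.6% were lower. The smooth muscle and acinar genes moved together over mice (median pairwise r of 0.928 and 0.982), so their counts are not counts of separate observations.

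With the acinar and smooth muscle scores as covariates, the median log2 fold change of the 27 probes turned to 0.04, with 11 lower and 16 higher. With the distal and proximal small intestine scores as covariates it was -0.36, with 27 of 27 lower. The smallest unadjusted p in that fit was 0.0213, and adjusted p was 0.889 or more in limma. The genes of the distal list did not move as a group over mice (median pairwise r of 0.0685). That fit therefore cannot be read as an adjustment for position along the intestine. As the 27 probes move together over mice, these counts are not counts of 27 separate observations. No probe was called in either fit (0 of 27). The direction of the small differences therefore moved with the terms in the model.

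Further genes listed for Paneth cells, outside the rule, gave no common direction. Whether each listed gene is expressed by Paneth cells here was not tested. Of 24 measured genes from a list of 25, 13 were higher and 11 lower in HF-Q, with a median log2 fold change of 0.005 and 0 called. Tcf4, a transcription factor (-0.17 ± 0.07 SE), and Clps, a lipase cofactor also made by the pancreas (-0.35 ± 0.17), had the smallest unadjusted p (0.0188 and 0.0568 in limma). Tcf4 is a different gene from Tcf7l2, a separate entry of the list (-0.20 ± 0.15, unadjusted p = 0.189 in limma). The score of the list ran -0.27, 0.04 and 0.18 in HF-Q mice and -0.29, 0.13 and 0.25 in HF mice. In the goblet list 1 of 8 measured genes was higher and 7 lower, with Fcgbp (-0.17 ± 0.12) and Agr2 (0.12 ± 0.09) first by p. In the enterocyte list 5 of 12 were higher and 7 lower, led by Fabp2 (-0.22 ± 0.08) and Cdh17 (0.11 ± 0.05). The macrophage list had 2 of 9 higher and 7 lower, with Csf1r (-0.15 ± 0.10) and C1qc (-0.14 ± 0.10) first. The distal small intestine list had 4 of 7 higher and 3 lower, with Slc51b (0.31 ± 0.12) and Cubn (-0.49 ± 0.20) first. The proximal list had 3 of 9 higher and 6 lower, with Lct (-0.31 ± 0.18) and Fabp1 (-0.18 ± 0.12) first.

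Over mice, the Paneth products tracked each other closely. Between the brightest probes of Defa23, Lyz1, Mmp7, Ang4, Itln1 and Pla2g2a, 15 pairs in all, Pearson's r ran from 0.836 (Mmp7 and Ang4) to 0.994 (Lyz1 and Itln1), and Spearman's rho from 0.755 to 0.986. Each r had the smallest p that the permutation test could give (1e-05 raw and adjusted over the 15 pairs, two-sided, 100000 resamples). The Spearman p values were 2e-04 or less. Pairs with Lyz1 used 18 mice and the others 23. Without the 2 mice farthest from the median on the first gene, the lowest r was 0.773. Within single slides of 7 or 8 mice it was 0.769, among HF-Q mice 0.941 and among HF mice 0.835. Slide 1 gave no value for Lyz1, which was read in 3 of its mice. Mmp7 and Pla2g2a, whose probes share at most 9 and 10 bases in a row with a Defa probe, had r = 0.913 and r = 0.94 with Defa23 (permutation p = 1e-05 each). Over all 351 pairs of detected probes r had a median of 0.979 (0.668 to 0.999) as a description, with every probe read against the same pool on the same arrays.

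Defa23 and Mmp7 were also set against the 9 list scores, 18 relations adjusted together, a choice made after seeing the data. Both rose and fell with the score of the other Paneth cell genes (r = 0.933 for each; rho 0.925 and 0.875), although single genes of that list had a median pairwise r of only 0.161 among themselves, and with the crypt base stem score (r = 0.963 and 0.903; rho 0.926 and 0.855). Smooth muscle (r = 0.822 and 0.756; rho 0.83 and 0.787) and macrophage scores (r = 0.749 and 0.669; rho 0.716 and 0.605) had the same sign. Adjusted permutation p for r was 4e-05 for the other Paneth cell genes and crypt base stem with each gene. It was 4e-05 and 6e-05 for smooth muscle, and 2e-04 and 9e-04 for macrophage. The enterocyte score ran the other way (r = -0.589 and -0.631; rho -0.634 and -0.671; adjusted permutation p = 0.00471 and 0.00236), as did the proximal small intestine score (r = -0.601 and -0.704; rho -0.565 and -0.635; adjusted permutation p = 0.00471 and 2e-04).

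These signs held within all 3 slides, within both diets and without the 2 mice farthest on the score. The weakest of those values was 0.563 for the positive relations and -0.448 for the negative ones, in Mmp7 each time. For the distal small intestine score no relation passed the test (r = 0.151 and 0.061; rho 0.198 and 0.131; adjusted permutation p = 0.519 and 0.783), while slide 2 alone gave r = 0.736 and 0.802. The genes of that list did not move as a group over mice (median pairwise r of 0.0685), so its score says little of position along the intestine. For goblet scores r was 0.293 and 0.401 (rho 0.3 and 0.458; adjusted permutation p = 0.21 and 0.0812), and for acinar scores -0.323 and -0.271 (rho -0.318 and -0.194; adjusted permutation p = 0.171 and 0.238). Sox9 is in both the Paneth and the stem list, and genes of either list can be expressed by neighbouring crypt cells. The part of cell makeup in the spread was not tested.

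**Figure D4:**
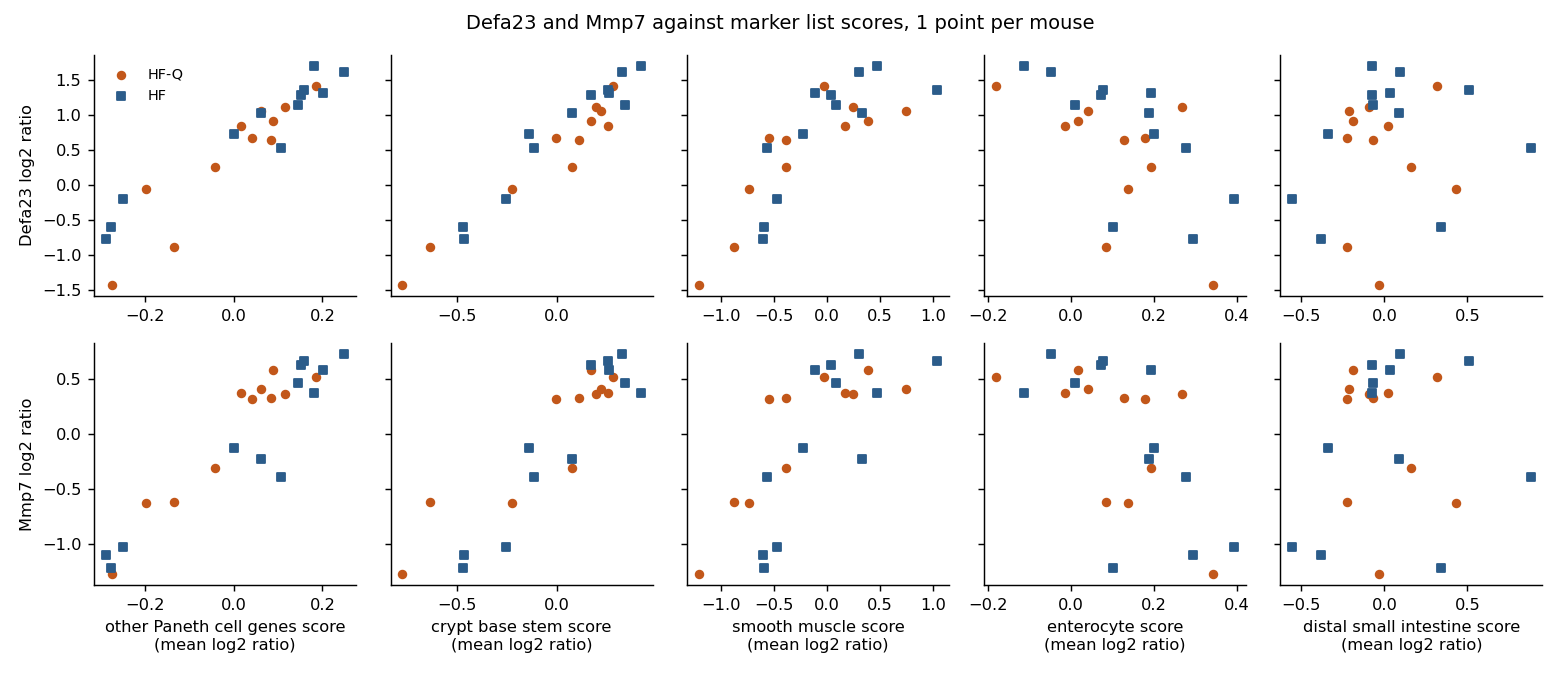
Each panel sets the log2 ratio of Defa23 (top row) or Mmp7 (bottom row) on the vertical axis against a marker list score on the horizontal axis, both as log2 ratios to the pool, with 1 point per mouse (circles HF-Q, squares HF). The points rise together for other Paneth cell genes, crypt base stem and smooth muscle (r from 0.756 to 0.963), fall for enterocyte (r = -0.589 and -0.631) and form no line for distal small intestine.

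The 2 dye channels, read apart, differed by how bright the probe was. Each channel was quantile normalized between arrays, a step added after seeing the data. The 10 members with a mean log2 Cy5 signal of 17 or less varied in Cy5 (SD 0.296 to 0.796, median 0.686) and little in the Cy3 pool (SD 0.0411 to 0.139, median 0.0794). Mmp7 had an SD of 0.683 in Cy5 and 0.0411 in Cy3, and Ang4 0.689 and 0.0628. In the 17 members above that signal, Cy5 varied less (median SD 0.326, range 0.218 to 0.644), and the Cy3 signal varied more (median SD 0.303, range 0.205 to 0.424) although each array carried the same pool. Defa23 had an SD of 0.236 in Cy5 and 0.424 in Cy3, against 0.864 for its log2 ratio. In these 17 probes the Cy3 signal was low on the arrays where Cy5 was high, with r over arrays from -0.949 to -0.62. Over the 455 other probes above the same signal the median r was -0.554 and the median Cy3 SD 0.0965. Over all 29249 probes kept they were 0.237 and 0.0771. The 2 channels share an array and a normalization, and the r values are descriptions. For the brightest defensins, Lyz1 and the brighter Itln1 probes the spread was larger as a ratio than in Cy5 alone. The ratios were normalized by loess and the single channels by quantiles. The parts of that step and of the Cy3 signal were not tested. The spread of Mmp7, Ang4, Pla2g2a, Defa25, Defa-rs7 and Defa-rs10 was present in Cy5 alone. With Cy5 alone the median SD over the 27 probes was 0.463.

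**Figure D5:**
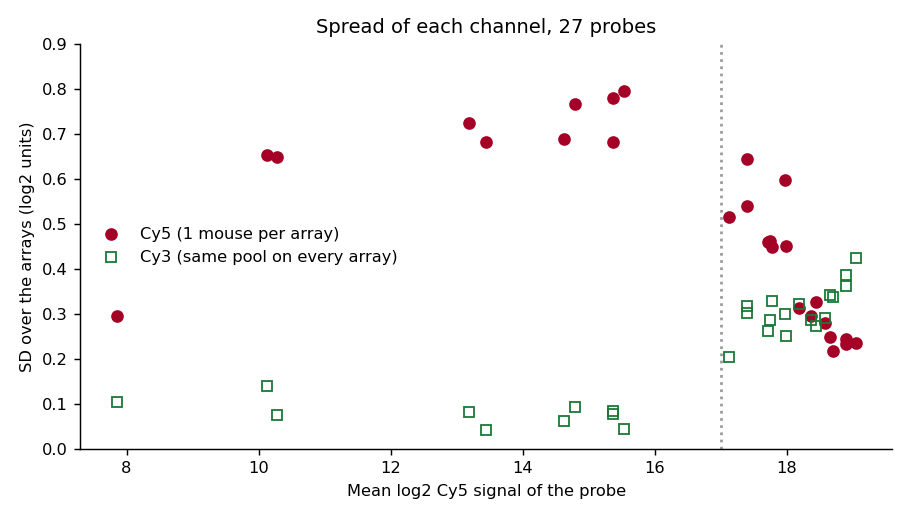
For each of the 27 detected probes, the SD over arrays of the Cy5 signal (filled circles, 1 mouse per array) and of the Cy3 signal (open squares, the same pool on every array) is plotted against its mean log2 Cy5 signal, with a dotted line at 17. Left of the line the Cy3 SD stays at 0.139 or below, and right of it the Cy3 SD is 0.205 to 0.424 while the Cy5 SD is 0.218 to 0.644, against 0.296 to 0.796 on the left.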

How the data were processed

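Per the labels' protocols, 200 ng of RNA per mouse was amplified and labelled. Agilent Feature Extraction 10.7.3.1 extracted the spots, per the submitters' processing notes. The deposited spot and background values are intensity on a linear scale, not normalized, per the file headers. The authors' log10 ratios, which the scanner software had corrected for background and dye (per the file headers), and the authors' deposited table of log2 values served as alternatives. For the table, the sources used here do not give the normalization. Its columns have a common median of 9.11 and follow Cy5 in rank (0.996 to 0.998 over arrays).

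Analysis used limma 3.58.1 (R 4.3.3): normexp background correction with an offset of 50, loess within arrays, in which the 3671 control spots had no weight, and log2 ratios of Cy5 over Cy3. Outlier-marked spots (260 to 355 per array, 15 of 621 member values) were set to missing. A probe stayed in (29249 did) if Cy5 was well above background in 50% or more of a diet's arrays. HF-Q minus HF was fitted by lmFit and eBayes over 23 arrays with no covariate, two-sided, at an adjusted p threshold of 0.05, and the fit was tested on simulated data. The number of arrays limits the precision. Whether mice are independent beyond their labels (litter, cage) is not stated.

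Members and marker lists were chosen with earlier results of these data known. Values are given for all probes of the 5 named products, the brightest probe of each Defa name, the 6 smallest p, the 3 highest and 3 lowest SD, and 2 genes per list by p, except that a few genes this rule names are not reported here. RefSeq names come from assembly GRCm38.p6, and no coordinates were taken from it. Exon, intron and UTR positions were not analysed here. The labels do not say whether replicate numbers pair the mice, and the main fit did not use them as pairs. Of 11 same-numbered pairs, 5 correlated above 0.1 (range -0.335 to 0.419), which cannot settle what the numbers stand for.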

Additional observations from a re-analysis of the deposited data

How the results depend on the processing

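Under all 19 alternatives limma called 0 Paneth probes and 0 of all probes at adjusted p under 0.05, where probes at an unadjusted p under 0.05 numbered 1276 as reported, 969 at gene level, 2540 with no filter on dim probes, 2267 with crypt base stem and smooth muscle scores and 3474 with acinar and smooth muscle scores as covariates. The median log2 fold change of the Paneth probes was below 0 in 18 of the 19 (-0.36 to 0.04). It was -0.09 with median centring, -0.08 with Cy5 alone, -0.17 with the authors' log10 ratio, -0.13 with the authors' log2 table and -0.03 with the crypt base stem and smooth muscle scores, a fit added after seeing the data. Median centring moved the median of all probes to 0.04. With the replicate number as a block, leaving out HF mouse 12, it was -0.11 with 0 probes called, and 1 of 11 numbers correlated best with its own. The fit without the block also called 0 probes. The median SD of the Paneth probes was 0.81 with median centring, 0.794 with no background correction, 0.772 with the authors' log10 ratio, 0.768 with the authors' log2 table and 0.463 with Cy5 alone.

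Of 395 log2 fold changes of 21 named probes under the alternatives, 38 had the other sign, and none was called (0). With median centring these were Defa26 (0.071), Defa-ps1 (0.00033), Defa5 (0.0296) and Pla2g2a (0.0296), with Cy5 alone Defa26 (0.022), and with the authors' log2 table Defa5 (0.0038). Within slide 1 they were Lyz1 (0.027) and Defa26 (0.16), within slide 2 Defa26 (0.027) and Defa-ps1 (0.015), and within slide 3 Defa21 (-0.21), Defa-rs7 (0.054), Defa-rs10 (0.038), Pla2g2a (0.053) and Defa-rs12 (0.088). With the replicate block they were Defa26 (0.016), Defa5 (0.19) and Pla2g2a (0.0030), and with array weights Defa21 (-0.011). With distal and proximal scores they were Defa21 (-0.25) and Mmp7 (-0.13). With acinar and smooth muscle scores they were Defa3 (0.0060), Defa-rs2 (0.045), Lyz1 (0.0088), Defa26 (0.20), Defa-ps1 (0.16), Defa5 (0.27), Defa-rs7 (0.092), Defa-rs10 (0.058), Defa25 (0.11) and Pla2g2a (0.14). With crypt base stem and smooth muscle scores they were Lyz1 (0.0081), Defa26 (0.11), Defa-ps1 (0.076), Defa5 (0.14), Defa-rs7 (0.025), Defa25 (0.030) and Pla2g2a (0.076). The cause was not tested. Probes at background limit what can be said of Defa4, Defa10, Defa-rs4, Defa-ps12 and Defa-ps13.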

Other observations

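Another 11 probes, under 8 RefSeq symbols, are defensins by their RefSeq name although the scanner files give them other names, so they fall outside the rule. They are Defa27, Defa28, Defa32, Defa37, Defa38, Defa39, Defa40 and Defa42. All 11 were well above background and had the wide spread of the members, with SD over the mice of 0.58 to 1.09 (median 0.859). In HF-Q against HF, 10 of 11 were lower, against 51.6% of all probes kept. All 11 followed the median of the members over the mice (r of 0.965 or more, median 0.993), so they are not observations separate from the members. The median log2 fold change was -0.19 (range -0.31 to 0.04), and 0 were called by limma. The smallest unadjusted p was 0.326, for Defa40.

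Some probes of genes not named as defensins stood close to the members over the mice. The probes were ranked by their correlation with the median of the members after the values were seen, so no p is given. Leading the list were Haao, an enzyme of tryptophan breakdown (r = 0.993, rho = 0.982), Npff, a neuropeptide precursor (r = 0.991, rho = 0.965), Ubash3b, a phosphatase (r = 0.991, rho = 0.966), Habp2, a secreted serine protease that is also on the list of other Paneth cell genes above (r = 0.988, rho = 0.966), and Atf7, a transcription factor (r = 0.987, rho = 0.974), each over 23 mice. Their probes share unbroken runs of 8 to 12 bases with any defensin probe of the set. Haao had an SD of 0.496 over the mice, and its log2 fold change of HF-Q over HF was -0.14.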
